A study of Mus musculus with 15 samples.

Results

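Ears treated with PMA and ethanol were compared with control ears across gene classes outside the classic inflammatory lists: enzymes of metabolism, carriers and channels, receptors, transcription factors and noncoding RNA. The comparison used 9 of the 15 libraries of the series, the 4 whose titles begin with PMA_ethanol and the 5 titled Control. Each was made from polyA RNA of ear tissue from female mice aged 5 weeks, and the labels place all of them, controls included, in a model of ear inflammation induced by phorbol 12-myristate 13-acetate (PMA). The strain, the dose of PMA, the time after treatment, and whether control ears received any vehicle are not stated in the labels used here, so an effect of ethanol and an effect of PMA cannot be told apart. Whether the libraries of a group come from separate mice is not stated either, and p-values therefore measure only how these samples vary, a spread that may be technical. The remaining libraries of the series, titled PMA_1002, are not compared here, but they entered the filter, the scaling and the estimate of the spread.

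PMA is a phorbol ester that takes the place of diacylglycerol and switches on protein kinase C, which in skin leads to MAP kinase and AP-1 signalling, release of cytokines, entry of leukocytes and thickening of the epidermis. The ear consists of thin skin on both sides of a sheet of cartilage, with hair follicles, sebaceous glands, nerves, fat and some skeletal muscle. The RNA of whole ears mixes all of these cells, and in such bulk samples fewer cells of a type and less RNA per cell cannot be told apart.

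Reads in genes numbered between 2656680 (PMA_ethanol library 3) and 23999666 (PMA_ethanol library 2) per library, and 14991 of 48795 genes passed the filter on low counts. Values per library are CPM, reads relative to the library total as scaled by TMM. Changes are log2 fold changes with a standard error (SE), and a gene is said to rise or fall where the edgeR quasi-likelihood test gave a Benjamini-Hochberg adjusted p under 0.05 over all 14991 genes. A number after "rose by", "fell by", "higher by" or "lower by" is the size of that log2 change. By the rule for calls 4876 genes rose (32.5%) and 5382 fell (35.9%), 68.4% together, and 2072 rose and 2070 fell by a fold of at least 2 (13.8% each). The median log2 fold change of all genes tested was -0.07, and upper-quartile scaling shifted it by -0.24, to 3682 higher and 7262 lower genes. In 57.8% of the genes the groups did not overlap, so a gene without overlap is common here. The first principal component of the 9 libraries, with 73.1% of the variance, separated the groups, with controls at -58.3 or below and PMA_ethanol libraries at 72.3 or above. Hair follicle markers varied within both groups, with levels above 4 log2 CPM in control libraries 3 and 5 and PMA_ethanol libraries 1 and 2, and without these 4 libraries and the 2 such libraries of the remaining group 4439 genes rose and 4119 fell.

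Defining markers of ear tissue were present, with all 10 keratinocyte, all 12 skeletal muscle and 9 of 10 cartilage markers measured, and Matn1 of cartilage at 0 in controls. Of the keratinocyte markers 8 of 10 fell and 1 rose, at a median of -0.51, and of the Schwann cell and melanocyte markers 9 of 10 fell. Of 10 neutrophil markers 7 were measured and all 7 rose, with 4 of them above 1 CPM in controls, and Ngp was at 0 in controls. Their mean level lay between 0.063 and 1.04 log2 CPM in controls and between 7.0 and 7.85 with PMA_ethanol. Monocyte and macrophage markers rose in 6 of 10 cases and fell in 1, and mast cell markers rose in 1 and fell in 6 of 10 cases. Of 10 sebaceous gland markers 5 fell and 2 rose, with mean levels of 6.31 to 6.70 log2 CPM in controls and 5.67 to 6.27 with PMA_ethanol. Dermal fibroblast markers fell in 4 and rose in 2 of 10 cases. Adipocyte markers fell in 2 and rose in 0 of 10 cases, at a median of -0.43. Among all genes 35.9% fell and 32.5% rose, so neither set fell much more often than genes in general. Mean levels overlapped between controls and PMA_ethanol for fibroblast (8.866 to 9.055 and 8.525 to 8.914 log2 CPM) and adipocyte markers (4.363 to 5.489 and 3.739 to 4.551). They also overlapped for mast cell markers (4.439 to 5.064 and 4.066 to 4.763). The part of cell marker levels in the results on leukocyte, epidermal, nerve, mast cell, fibroblast and lipid metabolism genes was not tested.

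**Figure D1:**
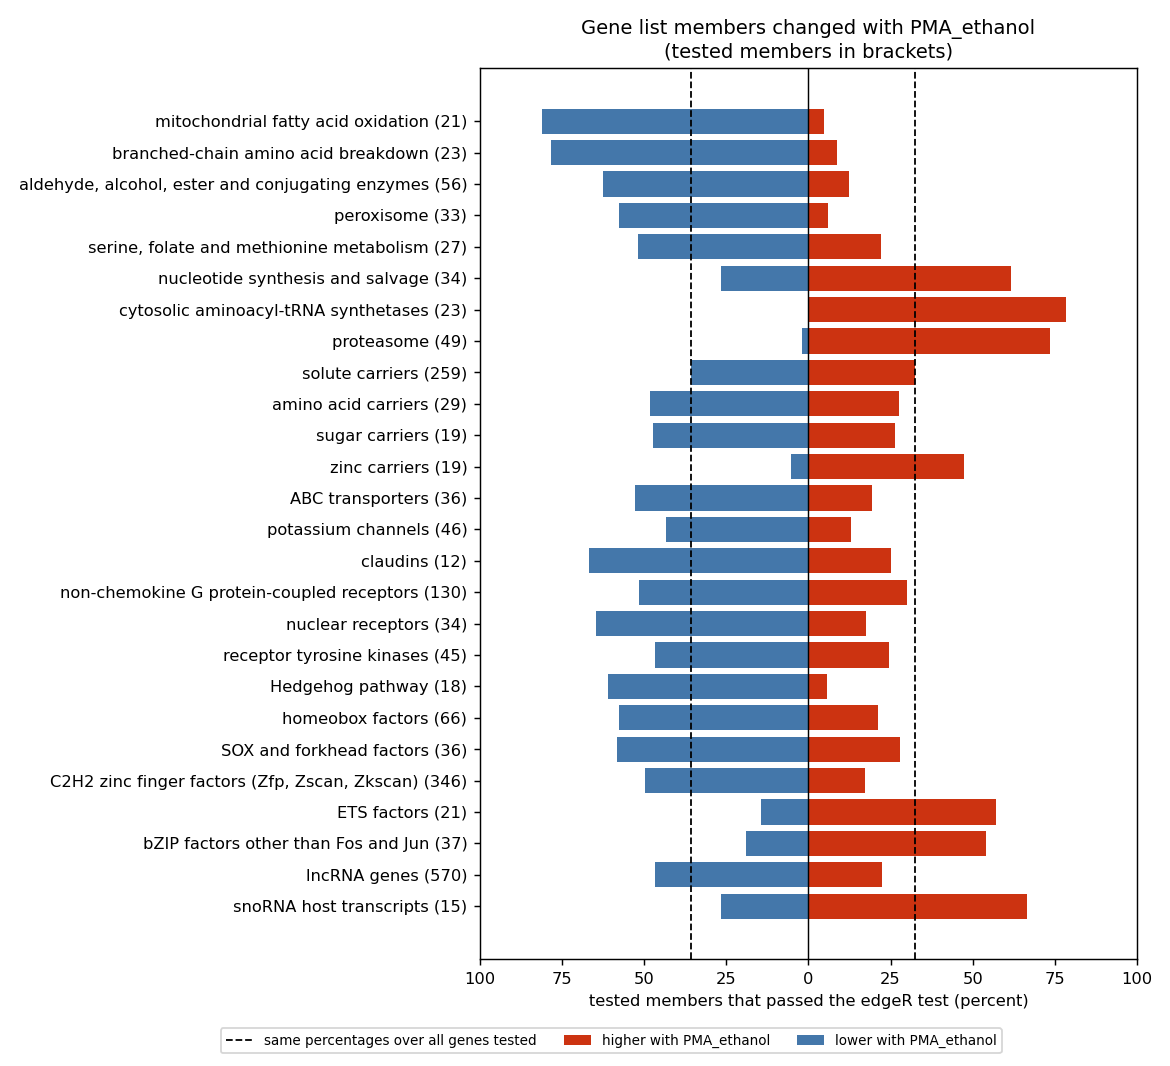
Percent of the tested members of each gene list (number tested in brackets) that rose (red, to the right) or fell (blue, to the left) with PMA_ethanol, with dashed lines at 32.5% and 35.9% for all genes tested. Fatty acid oxidation, breakdown of branched-chain amino acids and the Hedgehog pathway lie mostly to the left, and tRNA synthetases and the proteasome mostly to the right.

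Transcripts of most enzymes that burn fatty acids and branched-chain amino acids fell, while those of most enzymes that build nucleotides and charge tRNAs rose. Of 21 measured genes of mitochondrial fatty acid oxidation 17 fell and 1 rose, at a median log2 fold change of -0.65 against -0.07 for all genes. Cpt1a, which makes the acylcarnitines that enter mitochondria, had 147, 162, 159, 158 and 137 CPM in control libraries 1 to 5 and 76, 76.9, 53.9 and 83.1 CPM in PMA_ethanol libraries 1 to 4. The groups did not overlap, the lowest value was in PMA_ethanol library 3, and the log2 fold change was -1.05 (SE 0.112, adjusted p = 2.72e-07 by edgeR). Acadm, the medium-chain acyl-CoA dehydrogenase, fell by 1.19, Acad11, a dehydrogenase of longer chains, by 1.20, and Cpt1c, a brain-type relative of Cpt1a, by 1.32. The member that rose was Slc25a20, the carrier that brings acylcarnitines through the inner membrane, at 0.49 (SE 0.0715, adjusted p = 1.09e-05 by edgeR).

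Genes for the breakdown of the branched-chain amino acids leucine, isoleucine and valine were lower at most steps. Of 23 members 18 fell and 2 rose, at a median of -0.68. Mccc2, a subunit of the leucine-pathway enzyme methylcrotonyl-CoA carboxylase, went from 25 ± 1.59 CPM (SD, n = 5) to 8.13 ± 1.64 CPM (SD, n = 4), a log2 fold change of -1.60 (SE 0.129, adjusted p = 9.58e-09 by edgeR). Ppm1k, the phosphatase that activates the branched-chain ketoacid dehydrogenase, fell by 1.37, Acad8, which acts on valine, by 1.24, and Ivd, which acts on leucine, by 1.15. Bcat1, the cytosolic transaminase of the first and reversible step, went the other way, with 13, 17.7, 13.8, 13.7 and 11.2 CPM in the controls and 31.2, 33.1, 32.4 and 30.3 CPM with PMA_ethanol. Each PMA_ethanol library stood above each control, and the log2 fold change was 1.19 (SE 0.118, adjusted p = 1.21e-07 by edgeR).

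In the peroxisome, which shortens very long and branched fatty acids and holds catalase, 19 of 33 members fell and 2 rose. Cat, the catalase gene, fell by 1.40 (SE 0.125, adjusted p = 3.5e-08 by edgeR), Amacr, a racemase of branched fatty acids, by 1.67, Ehhadh, an enzyme of peroxisomal oxidation, by 1.44 and Acox3, an acyl-CoA oxidase, by 0.92. Pex5, the import receptor of the organelle, was one of those that rose, by 0.42, and its call was lost with upper-quartile scaling, where the log2 fold change was 0.185 (edgeR adjusted p = 0.121), and with no scaling beyond the library total.

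In the TCA cycle itself the share of genes that fell lay near that of all genes, and fewer rose. Of 29 genes of the cycle and of pyruvate entry 5 rose (17.2%) and 11 fell (37.9%), beside 32.5% and 35.9% of all genes. The median was -0.07, as for all genes. With upper-quartile scaling 3 rose and 21 fell, at a median of -0.31 against -0.30 for all genes. Cs, citrate synthase, did not pass the test, with a log2 fold change of -0.10 (SE 0.064, adjusted p = 0.193 by edgeR). It passed as lower with upper-quartile scaling, at -0.33 (edgeR adjusted p = 0.00026), as it did with no scaling beyond the library total. Dlst, a subunit of the 2-oxoglutarate dehydrogenase, rose by 1.09 and Mdh2, mitochondrial malate dehydrogenase, by 0.47. Idh2, mitochondrial isocitrate dehydrogenase, fell by 1.13, and the kinases Pdk1 and Pdk2, which switch off pyruvate dehydrogenase, fell by 1.74 and 1.24. Their relative Pdk4 went the other way, with 13.2, 17.7, 7.7, 16.2 and 12.6 CPM in controls and 36.9, 15.7, 112 and 46.1 CPM with PMA_ethanol. PMA_ethanol library 2 lay within the controls and library 3 far above the rest, and the log2 fold change was 1.91 (SE 0.462, adjusted p = 0.00227 by edgeR), and 1.29 without library 3. Pdk4 was chosen after its values were seen.

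**Figure D2:**
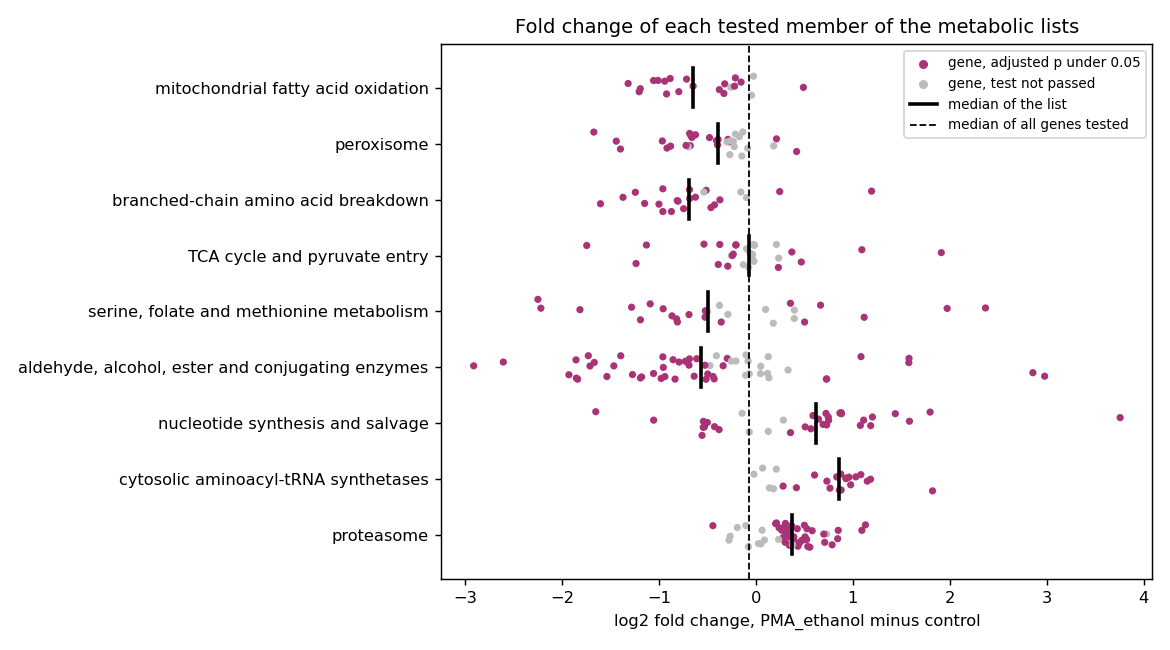
Log2 fold change (PMA_ethanol minus control) of each tested gene of 9 metabolic lists, coloured by whether the gene passed the test, with the median of each list as a black bar and the median of all genes (-0.07) as a dashed line. The fatty acid and branched-chain lists centre at -0.65 and -0.68 and the tRNA synthetases at 0.86, and within several lists 1 or 2 genes stand far on the other side.

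One-carbon metabolism, which moves single carbon units from serine and glycine to folate and to methionine, held genes that moved either way. Of 27 members 6 rose and 14 fell. Mat2a, which makes the methyl donor S-adenosylmethionine, had 195, 161, 204, 182 and 197 CPM in controls and 843, 791, 1041 and 1207 CPM with PMA_ethanol. All 4 PMA_ethanol libraries stood far above the controls, and the log2 fold change was 2.37 (SE 0.138, adjusted p = 1.67e-10 by edgeR). The mitochondrial folate enzymes Mthfd2 and Mthfd1l rose by 1.97 and 1.12. Of the glycine cleavage genes, Gldc and Amt fell. Gldc had 12, 6.72, 7.7, 8.01 and 6.72 CPM in controls and 0.987, 1.58, 0.415 and 3.43 CPM with PMA_ethanol, at its highest in control library 1 and without overlap between the groups, a log2 fold change of -2.25 (SE 0.335, adjusted p = 1.38e-05 by edgeR). Amt fell by 2.22 and Cbs, which leads homocysteine to cysteine, by 1.81.

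Nucleotide synthesis and salvage rose in 21 of 34 measured genes and fell in 9, at a median of 0.62. Upp1, uridine phosphorylase, which releases ribose phosphate and uracil from uridine, had 1.21, 1.21, 5.13, 1.54 and 2.3 CPM in controls and 39.4, 30.01, 44.8 and 22.5 CPM with PMA_ethanol. The highest controls, libraries 3 and 5, were those of high hair follicle level and lay below the lowest PMA_ethanol library, and the log2 fold change was 3.76 (SE 0.361, adjusted p = 1.7e-07 by edgeR), and 4.41 without control library 3. Uck2, the uridine and cytidine kinase, rose by 1.80, Ctps, which makes CTP, by 1.58 and Nme1, a nucleoside diphosphate kinase, by 1.44. Tk1, the thymidine kinase of cells in S phase, fell by 1.65, and Prps2, which makes the ribose phosphate donor, by 1.05.

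Most genes that charge tRNAs and most proteasome genes rose, at medians of 0.86 and 0.37. Of 23 cytosolic aminoacyl-tRNA synthetase genes 18 rose and 0 fell by the edgeR test, 0 fell at an unadjusted p under 0.05, by DESeq2 or by limma voom, and with upper-quartile scaling 16 rose and 1 fell. Rars and Yars, which load arginine and tyrosine, rose by 1.18 and 1.15, Farsa, a phenylalanine enzyme subunit, by 1.08, and Eef1e1, a scaffold of the synthetase complex, by 1.82 (SE 0.197, adjusted p = 3.92e-07 by edgeR). Of 49 proteasome genes 36 rose and 1 fell, with 20 and 6 under upper-quartile scaling. Psme3, a nuclear activator of the proteasome, rose by 1.13 and Psmb10, a subunit of the immunoproteasome, by 1.09, and Psmd5, an assembly chaperone, fell by 0.44. Mitochondrial ribosomal protein genes rose in 31 (40.3%, against 32.5% of all genes) and fell in 5 of 77 cases, a direction that flipped to 16 higher and 24 lower with upper-quartile scaling. Among them Mrps25 rose by 1.65 and Mrpl34 fell by 0.72.

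Lysosomal and autophagy genes did not move one way. Of 49 lysosomal genes 11 rose (22.4%) and 20 fell (40.8%), beside 32.5% and 35.9% of all genes. The proteases Ctsl and Ctsc were higher by 1.39 and 1.18, and the calcium channel Mcoln1 and the sulfatase Sgsh lower by 1.18 and 1.10. Of 22 genes of the vacuolar proton pump, which acidifies the lysosome, 12 rose and 4 fell, and with upper-quartile scaling 6 rose and 7 fell. Its subunit genes Atp6v0c and Atp6v1b2 rose by 1.65 and 1.16, and Atp6v0e2 fell by 1.16. Of 41 autophagy genes 12 rose (29.3%) and 16 fell (39%), near the 32.5% and 35.9% of all genes. Vmp1, a membrane protein of early autophagosomes, rose by 2.27 (SE 0.117, adjusted p = 3.37e-11 by edgeR), and the cargo receptor genes Calcoco1 and Nbr1 fell by 1.38 and 1.10.

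The aldehyde, alcohol, ester and conjugating enzymes, which oxidise and couple small molecules, were listed with 121 genes, of which 56 passed the filter. Among those 35 fell and 7 rose, at a median of -0.57. Adh7, the class IV alcohol dehydrogenase of surface epithelia, which also oxidises retinol, had 89.1, 78.2, 62.9, 88.9 and 92 CPM in controls and 11.7, 9.99, 6.22 and 14.2 CPM with PMA_ethanol. The 2 ranges lay far apart, and the log2 fold change was -2.91 (SE 0.19, adjusted p = 8.28e-10 by edgeR). Adh1, the class I enzyme, fell by 1.93. Ugt1a6a, a glucuronosyltransferase, fell by 2.60, a value that is uncertain because the genes of its cluster share exons. Akr1b8, an aldo-keto reductase, rose by 2.86 (SE 0.186, adjusted p = 9.65e-10 by edgeR), and Sult2b1, a cholesterol sulfotransferase of the upper epidermis, and Ephx3, an epoxide hydrolase of the epidermis, both rose by 1.58.

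Retinoid metabolism, which turns retinol into the ligand of nuclear receptors, had 7 of 28 measured members higher (25%) and 10 lower (35.7%). Among all genes the shares were 32.5% and 35.9%, so the list did not change more often than genes in general. Dhrs9, a retinol dehydrogenase, had 10.1, 7.58, 9.79, 6.78 and 7.54 CPM in controls and 102, 58.7, 104 and 56.4 CPM with PMA_ethanol. The PMA_ethanol values fell into a higher pair, libraries 1 and 3, and a lower pair, both above every control, and the log2 fold change was 3.24 (SE 0.236, adjusted p = 6.57e-09 by edgeR). Aldh1a3, which makes retinoic acid, had 6.42, 2.76, 17.3, 5.7 and 11 CPM in controls and 105, 81, 67.6 and 29.8 CPM with PMA_ethanol, a log2 fold change of 2.98 (SE 0.445, adjusted p = 4.39e-05 by edgeR). Its highest controls were libraries 3 and 5, the controls of high hair follicle level. Stra6, a retinol uptake receptor, and Cyp26a1, which breaks retinoic acid down, rose by 1.47 and 1.11. The receptor genes Rxra and Rarg fell by 1.51 and 1.18, and Dhrs3, which returns retinal to retinol, by 0.74.

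Iron and heme handling had 18 of 38 measured members higher and 13 lower, and the numbers were 15 and 15 with upper-quartile scaling. Lcn2, which binds bacterial iron carriers, had 3.47, 4.13, 3.85, 3.85 and 5.58 CPM in controls and 219.6, 261, 214 and 211 CPM with PMA_ethanol. The highest control was far below the lowest treated library, and the log2 fold change was 5.77 (SE 0.158, adjusted p = 4.69e-14 by edgeR). Slc11a1, the metal exporter of phagosomes, rose by 4.08, beside the rise of all 7 measured neutrophil markers. Hp and Hpx, which bind free hemoglobin and heme, rose by 2.995 and 3.52, and Hmox1, which breaks heme down, by 2.07 (SE 0.33, adjusted p = 7.75e-05 by edgeR). Tfrc, the transferrin receptor, rose by 0.53 (SE 0.135, adjusted p = 0.00214 by edgeR) with overlapping groups, and was not called with upper-quartile scaling, at 0.29 (edgeR adjusted p = 0.0537). The iron exporter gene Slc40a1 fell by 0.95, its partner oxidase Heph by 1.35 and Alad, the second enzyme of heme synthesis, by 1.28.

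Of 16 measured NAD and kynurenine genes 5 rose (31.2%) and 6 fell (37.5%), close to the 32.5% and 35.9% of all genes. Bst1, an ectoenzyme that consumes NAD and is carried by myeloid cells, rose by 2.44 (SE 0.23, adjusted p = 6.41e-08 by edgeR). Nmrk1, which salvages nicotinamide riboside, and Nadk2, the mitochondrial NAD kinase, fell by 1.80 and 1.51. Nampt, the salvage enzyme of nicotinamide, did not pass, at -0.14 (SE 0.117, adjusted p = 0.287 by edgeR), and passed as lower with upper-quartile scaling, at -0.38 (edgeR adjusted p = 0.00839), and with no scaling beyond the library total. In the list of the pentose phosphate pathway and glycogen 7 of 30 members rose (23.3%) and 9 fell (30%), both below the 32.5% and 35.9% of all genes. The numbers were 7 and 8 with DESeq2 size factors and 6 and 16 with upper-quartile scaling. Pgm2, which links sugar phosphates, rose by 1.66, the liver-type glycogen phosphorylase Pygl by 1.08 and the glycogen-targeting subunit Ppp1r3b by 1.37, and the brain-type phosphorylase Pygb fell by 0.93.

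Solute carriers as a whole changed in shares close to those of all genes, while single carriers moved by large folds in both directions. Of 385 listed solute carriers 259 passed the filter, of which 84 rose (32.4%) and 93 fell (35.9%), beside 32.5% and 35.9% of all genes, and the numbers were 88 and 88 with DESeq2 size factors and 73 and 131 with upper-quartile scaling. The carriers that rose by several fold included those of cystine, neutral amino acids, sugars and lactate. Slc7a11, the cystine and glutamate exchanger, had 5.72, 2.93, 9.71, 4.01 and 8.53 CPM in controls and 120.3, 93.1, 139 and 86.2 CPM with PMA_ethanol, a log2 fold change of 4.09 (SE 0.317, adjusted p = 3.5e-08 by edgeR). Its partner chain Slc3a2, needed to bring it to the membrane, went from 146 ± 15.5 CPM (SD, n = 5) to 265 ± 16 CPM (SD, n = 4) and rose by 0.87. The groups were apart for both genes, and the highest Slc7a11 controls were libraries 3 and 5, those of high hair follicle level.

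Among 29 measured amino acid carriers 8 rose and 14 fell. Slc6a14, which takes up neutral and basic amino acids with sodium and chloride, lies at chromosome X, 21714896 to 21742355, on GRCm38 and had 56.7, 43.2, 40.6, 53.5 and 55.1 CPM in controls and 1009.9, 506, 916 and 544 CPM with PMA_ethanol. Every PMA_ethanol library was many times higher than every control, with libraries 1 and 3 above 2 and 4, and the log2 fold change was 3.90 (SE 0.266, adjusted p = 7.74e-09 by edgeR). Slc7a1, the arginine carrier, rose by 1.92 and Slc7a5, the leucine carrier that also pairs with Slc3a2, by 1.55. Slc6a9, a glycine carrier, fell by 1.76, and Slc7a4, a relative of the basic amino acid carriers, fell by 2.73, with no read in PMA_ethanol library 3, the shallowest.

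The promoters of 3 genes are shown because they hold the DNA letters TGACTCA, which read TGAGTCA on the other strand and form the TPA response element named after this phorbol ester, and because their genes moved in different directions. Each window runs from 250 bases before to 50 after the gene start in RefSeq on GRCm38.p6, written in the direction of the gene, with matches on either strand in capitals. Slc6a14 (chrX:21714650-21714949, plus strand) and Cldn4, a claudin of tight junctions (chr5:134946885-134947184, minus strand), rose, and Mrgprb2, a receptor of mast cells (chr7:48558037-48558336, minus strand), fell.
Slc6a14: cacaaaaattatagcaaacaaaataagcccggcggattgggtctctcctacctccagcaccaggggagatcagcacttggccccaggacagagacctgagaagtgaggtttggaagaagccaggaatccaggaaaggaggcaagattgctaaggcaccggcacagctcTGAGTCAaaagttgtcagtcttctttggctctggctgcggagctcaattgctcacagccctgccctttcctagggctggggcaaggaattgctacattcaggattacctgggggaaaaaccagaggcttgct
Cldn4: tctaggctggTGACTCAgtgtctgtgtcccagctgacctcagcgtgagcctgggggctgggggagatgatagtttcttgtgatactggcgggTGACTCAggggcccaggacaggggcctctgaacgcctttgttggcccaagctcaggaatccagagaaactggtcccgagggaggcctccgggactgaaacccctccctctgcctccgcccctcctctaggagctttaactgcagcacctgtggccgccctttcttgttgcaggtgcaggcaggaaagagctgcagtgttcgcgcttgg
Mrgprb2: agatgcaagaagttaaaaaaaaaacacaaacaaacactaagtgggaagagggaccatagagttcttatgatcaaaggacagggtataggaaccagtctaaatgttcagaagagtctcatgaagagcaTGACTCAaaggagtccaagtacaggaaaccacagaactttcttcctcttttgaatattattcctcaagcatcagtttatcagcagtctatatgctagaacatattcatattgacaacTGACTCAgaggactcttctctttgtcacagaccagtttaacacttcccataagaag
Slc6a14 held 1 match and Cldn4 and Mrgprb2 held 2 each. Of all 32851 promoters given there, 5.2% held at least 1 match to these letters on either strand, and a match can overlap other motifs. A comparison of the share with a match between changed and unchanged genes was void, because only 72.2% of the genes higher by a fold of at least 2 and 74% of those lower had a promoter in the table, below the 80% needed. A match describes the letters and not a site in use.

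Among 19 measured sugar carriers and sodium-coupled relatives 5 rose and 9 fell. Slc2a6, a facilitative carrier, had 1.56, 2.76, 3.29, 1.7 and 2.95 CPM in controls and 73.3, 49.4, 67.6 and 61.4 CPM with PMA_ethanol, a log2 fold change of 4.63 (SE 0.219, adjusted p = 1.56e-11 by edgeR) with no overlap. Slc5a1, the sodium-driven glucose carrier, rose by 3.05 (SE 0.202, adjusted p = 2.92e-09 by edgeR), Slc2a3 by 1.90 and Slc2a1, the main glucose carrier of the epidermis, by 1.04. Slc2a12, Slc2a5, which carries fructose, and Slc2a8, which resides inside cells, fell by 2.33, 1.54 and 1.46. The list thus held large changes both ways, with 5 members in each direction past a fold of 2.

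Monocarboxylate carriers move lactate, pyruvate and ketone bodies. Of 13 measured members 5 rose and 5 fell (38.5% each), near the 32.5% and 35.9% of all genes. Slc16a3, the lactate exporter of glycolytic cells, had 7.28, 9.65, 5.62, 8.32 and 5.74 CPM in controls and 126, 51.7, 105 and 140.2 CPM with PMA_ethanol, a log2 fold change of 3.86 (SE 0.281, adjusted p = 1.04e-08 by edgeR). PMA_ethanol library 2 held its lowest treated value, still above all controls. Slc5a8, a sodium-coupled carrier of short acids, rose by 4.29 (SE 0.416, adjusted p = 4.88e-07 by edgeR) and Slc16a1 by 1.29. Slc16a14, a member of the family with little-known cargo, had 22.7, 24.3, 18.8, 22.8 and 25.4 CPM in controls and 0.658, 0.832, 1.24 and 1.86 CPM with PMA_ethanol. Every treated library was far below every control, and the log2 fold change was -4.42 (SE 0.262, adjusted p = 1.98e-10 by edgeR).

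Of 19 measured zinc carriers 9 rose and 1 fell, and 7 rose and 5 fell with upper-quartile scaling. Slc39a14, an importer of zinc and manganese induced in inflamed liver, rose from 49.6 ± 15 CPM (SD, n = 5) to 384 ± 62.1 CPM (SD, n = 4), by 2.94 (SE 0.213, adjusted p = 8.34e-09 by edgeR). Slc39a8 and Slc39a2, other importers, each rose by 1.48, and Slc39a3 fell by 0.60. Mitochondrial carriers were higher in 13 (31.7%) and lower in 18 (43.9%) of 41 cases, beside 32.5% and 35.9% of all genes. Slc25a25, a calcium-regulated carrier of ATP and phosphate, was higher by 2.60 and Slc25a27, a relative of the uncoupling proteins, lower by 1.83.

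Carriers of chloride, bicarbonate and sulfate had 7 of 29 members higher (24.1%) and 8 lower (27.6%), both below the 32.5% and 35.9% of all genes. The numbers were 8 and 8 with DESeq2 size factors and 5 and 14 with upper-quartile scaling. Slc26a9, a chloride carrier of epithelia, rose by 3.16 (SE 0.193, adjusted p = 4.99e-10 by edgeR), the sodium bicarbonate carriers Slc4a7 and Slc4a4 by 1.96 and 1.81, and the sulfate carrier Slc26a2 fell by 1.08. Of 14 measured carriers of organic ions and drugs 5 rose (35.7%) and 4 fell (28.6%), beside 32.5% and 35.9% of all genes. Slco2a1, which takes up prostaglandins, rose by 2.12 (SE 0.121, adjusted p = 1.37e-10 by edgeR), and Slc22a4, which takes up ergothioneine, fell by 2.49 (SE 0.176, adjusted p = 1.81e-09 by edgeR). Slc6a2, which is in the whole carrier list only and is the noradrenaline carrier of sympathetic nerve endings, fell from 35.4 ± 6.63 CPM (SD, n = 5) to 2.35 ± 1.56 CPM (SD, n = 4), by 3.69 (SE 0.417, adjusted p = 1.57e-06 by edgeR), beside the fall of 9 of 10 Schwann cell and melanocyte markers.

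ABC transporters, which spend ATP to export lipids and drugs, fell in 19 of 36 cases and rose in 7. Abcc5, an exporter of nucleotides and other anions, fell by 2.21 (SE 0.142, adjusted p = 6.02e-10 by edgeR), Abca8a by 1.86 and Abca1, the cholesterol exporter, by 1.08. Abca12, which fills the lipid granules of the upper epidermis, rose by 1.58, and Abce1, which recycles ribosomes and carries nothing, by 1.32.

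**Figure D3:**
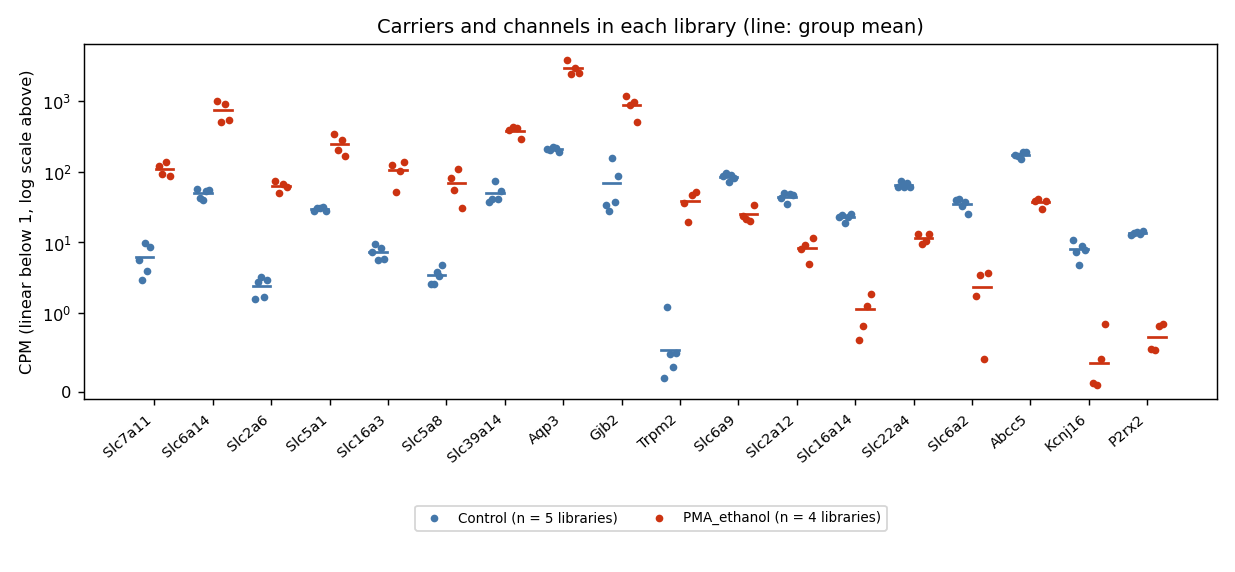
CPM (linear below 1 and log scale above) of 18 carrier and channel genes in each of the 5 control (blue) and 4 PMA_ethanol (red) libraries, with lines at the group means. The 10 genes from Slc7a11 to Trpm2 have all treated libraries above the controls, and the 8 from Slc6a9 to P2rx2 have them below.

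Potassium channel genes fell more often than they rose, in 20 against 6 of 46 measured cases (94 listed, 45 with a control mean of at least 1 CPM). Kcnj16, an inward rectifier, had 10.9, 7.41, 4.73, 8.94 and 7.87 CPM in controls and 0.11, 0.0876, 0.415 and 0.858 CPM with PMA_ethanol, and the log2 fold change was -4.81 (SE 0.564, adjusted p = 9.91e-07 by edgeR). Without PMA_ethanol library 4 or 2 it was -5.89 or -4.115. Kcnk2, a stretch-sensitive leak channel, fell by 1.94, and Kcnn4, a calcium-activated channel of leukocytes and epithelia, rose by 2.12. Of 62 sodium, calcium and TRP channel genes 15 rose (24.2%) and 25 fell (40.3%), beside 32.5% and 35.9% of all genes. Trpm2, an oxidant-activated calcium channel of phagocytes, had 0.173, 1.21, 0.481, 0.308 and 0.492 CPM in controls and 36.5, 19.4, 46.5 and 51.2 CPM with PMA_ethanol. The controls were at or below 1.21 CPM and every treated library was far above them, with a log2 fold change of 6.15 (SE 0.432, adjusted p = 4.31e-09 by edgeR). Trpv3, a warmth-sensitive channel of keratinocytes, rose by 2.43 (SE 0.151, adjusted p = 5.4e-10 by edgeR), Scnn1b, a subunit of the epithelial sodium channel, by 2.48 and Cacna1b, a calcium channel of nerve endings, from a control level below 1 CPM by 4.95.

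P2rx2, an ATP-gated channel, had 12.8, 13.8, 14.1, 13.1 and 14.8 CPM in controls and 0.548, 0.526, 0.83 and 0.858 CPM with PMA_ethanol. The controls were tightly grouped, no treated library reached 1 CPM, and the log2 fold change was -4.42 (SE 0.315, adjusted p = 2.07e-09 by edgeR). Trpv6, a calcium entry channel of epithelia, fell by 1.88, and by 2.78 without PMA_ethanol library 2. Of 29 chloride channel genes 7 rose (24.1%) and 11 fell (37.9%), beside 32.5% and 35.9% of all genes. Clcn5, an endosomal exchanger, was higher by 1.77, Lrrc8c, a volume-regulated channel subunit, higher by 0.97 and Ano7 lower by 1.79.

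Channels that join cells or pass water rose and fell by large folds. Of 19 measured aquaporins, connexins and pannexins 9 rose and 5 fell, 8 and 5 of them by a fold of at least 2. Aqp3, the water and glycerol channel of basal keratinocytes, had 209.5, 205, 228, 217 and 189 CPM in controls and 3817, 2463, 2956 and 2489.8 CPM with PMA_ethanol. Every treated value lay above the controls by a wide margin, and the log2 fold change was 3.80 (SE 0.189, adjusted p = 3.74e-11 by edgeR), in contrast to the fall of 8 of 10 keratinocyte markers. Aqp9, a glycerol channel of leukocytes and liver, rose by 0.62. Gjb2, connexin 26 of wounded epidermis, had 34, 27.6, 155, 37.5 and 88.2 CPM in controls and 1187, 887, 975 and 501 CPM with PMA_ethanol, a log2 fold change of 3.68 (SE 0.539, adjusted p = 4.69e-05 by edgeR), and its highest controls were the 2 of high hair follicle level. Gjb6 and Gja1, connexins 30 and 43, rose by 3.33 and 1.74, and Gjb5 fell by 1.39. Of 12 measured claudins 8 fell and 3 rose, with Cldn4 higher by 2.40 (SE 0.145, adjusted p = 3.38e-10 by edgeR), Cldn1, the main claudin of the epidermal barrier, higher by 0.96 and Cldn23 lower by 1.28.

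Receptors fell more often than they rose. Of 319 listed G protein-coupled receptors outside the chemokine family 130 passed the filter, and 39 rose and 67 fell, at a median of -0.58. Gpr84, a receptor for medium-chain fatty acids on myeloid cells, had 0.173, 0.172, 0.321, 0.308 and 0 CPM in controls and 14.4, 14.2, 17 and 4.72 CPM with PMA_ethanol, a log2 fold change of 5.77 (SE 0.456, adjusted p = 7.34e-09 by edgeR). Gpr132, a lipid receptor of macrophages, rose by 4.23 (SE 0.183, adjusted p = 4.34e-12 by edgeR). Bdkrb1, the inducible bradykinin receptor, had 1.21, 0.517, 0.882, 0.616 and 0.492 CPM in controls and 15, 10.7, 12.9 and 14.3 CPM with PMA_ethanol, a log2 fold change of 4.10 (SE 0.258, adjusted p = 4.13e-10 by edgeR). The treated libraries were well apart from the controls for all 3 genes. Gprc5a, an orphan receptor of epithelia, rose by 3.94, and by 4.65 without control library 3.

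The naming rule, which takes up to 4 lower genes of largest fold with at least 5 CPM in controls and no overlap, gave Npbwr1, Mrgprb2, Npy1r and Gpr34 for this list of receptors. Npbwr1, a receptor of neuropeptides B and W, had 17.3, 16, 16, 20.7 and 13.9 CPM in controls and 0.329, 0.964, 0.415 and 0.572 CPM with PMA_ethanol. No treated library reached 1 CPM, and the log2 fold change was -4.62 (SE 0.258, adjusted p = 1.01e-10 by edgeR), and -5.22 without PMA_ethanol library 2. Mrgprb2, through which mast cells sense basic peptides, fell by 4.06 (SE 0.466, adjusted p = 6.94e-07 by edgeR), with 0.548, 0.219, 0 and 0.286 CPM in the treated libraries, beside the fall of 6 of 10 mast cell markers. Npy1r, a receptor of neuropeptide Y, fell by 3.31, and Gpr34, a lysophospholipid receptor of resident myeloid cells, by 3.16.

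Of 34 measured nuclear receptors, which switch genes on when bound by hormones and lipids, 22 fell and 6 rose, at a median of -0.76. Ppara, a receptor for fatty acids, had 13.7, 12.4, 12.3, 12.5 and 10.5 CPM in controls and 1.64, 3.2, 5.39 and 4.86 CPM with PMA_ethanol. The groups did not overlap, and the log2 fold change was -1.80 (SE 0.276, adjusted p = 1.88e-05 by edgeR), beside the fall of the fatty acid oxidation genes. Pparg, a related receptor of fat and sebaceous cells, fell by 1.25. Nr3c1, the glucocorticoid receptor, fell by 0.92 and Nr1d1, a heme-binding clock repressor, by 0.95. Nr4a3, an orphan receptor of the early response, had 5.55, 11.2, 5.54, 10.2 and 5.08 CPM in controls and 164, 87.1, 197 and 180.2 CPM with PMA_ethanol, a log2 fold change of 4.398 (SE 0.271, adjusted p = 2.39e-09 by edgeR), and Nr4a1 and Nr4a2 rose by 3.34 and 2.10. Ppard, the third fatty acid receptor of the family, rose by 1.92 (SE 0.112, adjusted p = 1.66e-10 by edgeR), against the direction of the other two. Vdr, the vitamin D receptor, rose by 0.57 with overlapping groups.

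Receptor tyrosine kinases rose in 11 and fell in 21 of 45 cases. Epha2, an ephrin receptor of keratinocytes, rose by 2.41 (SE 0.121, adjusted p = 2.39e-11 by edgeR), Flt1, a receptor of vascular growth factor, by 2.29, Met, the receptor of hepatocyte growth factor, by 1.34 and Pdgfra, a receptor of dermal fibroblasts, by 1.26. Fgfr2, the receptor of keratinocyte growth factor, fell by 1.92 (SE 0.138, adjusted p = 2.21e-09 by edgeR), and Fgfr4 fell by 2.33. Epha1, an ephrin receptor of epithelia, fell from 137 ± 11.2 CPM (SD, n = 5) to 33.2 ± 11.8 CPM (SD, n = 4). Semaphorins and other guidance genes rose in 19 (30.2%) and fell in 25 (39.7%) of 63 cases, near the 32.5% and 35.9% of all genes. The semaphorins Sema6b, Sema4d and Sema7a rose by 2.60, 2.47 and 2.37, and the semaphorin receptor Plxna3 fell by 2.05.

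Within the Notch pathway, in which ligands of one cell switch on receptors of its neighbour, 8 of 25 members rose and 12 fell. The ligand genes Dll4 and Dll1 rose by 1.44 and 1.42, the ligand gene Jag2 fell by 1.19 and Dtx1, a regulator and target of the receptors, fell by 3.61 (SE 0.375, adjusted p = 2.15e-07 by edgeR). Of 18 Hedgehog pathway genes 11 fell and 1 rose, at a median of -0.96. Gas1, a co-receptor of Hedgehog ligands, had 201, 231, 189, 221 and 211 CPM in controls and 29.9, 35.3, 13.3 and 31.8 CPM with PMA_ethanol. All treated libraries were far below the controls, the lowest being library 3, and the log2 fold change was -2.86 (SE 0.242, adjusted p = 6.91e-08 by edgeR). Cdon, another co-receptor, fell by 1.64, Gli2, a transcription factor of the pathway, by 1.47 and Smo, its signal transducer, by 1.24.

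Transcription factor families differed in direction. Of 37 measured bZIP factors other than Fos and Jun 20 rose and 7 fell, and of 21 ETS factors 12 rose and 3 fell. Nfe2, a bZIP factor of blood lineages, rose by 3.92 (SE 0.281, adjusted p = 2.16e-09 by edgeR) and Batf, a partner of Jun proteins in leukocytes, by 3.52. Maff, a small Maf protein, had 11.6, 10.3, 13.2, 10.8 and 11.3 CPM in controls and 113, 64.4, 102 and 115 CPM with PMA_ethanol, a log2 fold change of 3.09 (SE 0.153, adjusted p = 2.09e-11 by edgeR). Cebpb, a factor of myeloid cells and keratinocytes, rose by 1.80. The bZIP genes that fell included the 3 PAR-domain factors, which follow the circadian clock. Hlf had 265, 229, 166, 242 and 223 CPM in controls and 14.1, 13.2, 18.3 and 39.9 CPM with PMA_ethanol, a log2 fold change of -3.42 (SE 0.344, adjusted p = 8.49e-07 by edgeR), and Dbp and Tef fell by 3.50 and 2.12. The hour at which the ears were taken is not stated in the labels used here. A difference in hour between the groups and the treatment therefore cannot be told apart for these genes, for the clock repressor Nr1d1 or for other genes that follow the clock.

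In the ETS family Elf3 and Ehf, both of epithelia, rose by 3.86 (SE 0.299, adjusted p = 5.85e-09 by edgeR) and 2.33, and Ets1 by 2.13. Of 46 bHLH factors and partners 13 rose and 22 fell. Tfec, a relative of Mitf in macrophages, rose by 4.61 (SE 0.294, adjusted p = 4.97e-10 by edgeR), Mxd1, a partner of Max that opposes Myc, by 2.99 (SE 0.129, adjusted p = 4.34e-12 by edgeR) and Bhlhe40, a repressor induced by many stresses, by 2.75. Hif1a, the oxygen-regulated factor, had 102, 96.5, 107, 124 and 137 CPM in controls and 539.5, 481, 600.2 and 505 CPM with PMA_ethanol, a log2 fold change of 2.23 (SE 0.168, adjusted p = 6.34e-09 by edgeR). Hif3a, a relative that can oppose it, fell by 3.45 (SE 0.44, adjusted p = 2.43e-06 by edgeR), with 1 library at 0, and by 4.35 without PMA_ethanol library 2. Mycl, a Myc relative, had 97.5, 100.1, 99.6, 96.6 and 109 CPM in controls and 3.18, 14.1, 2.49 and 5.29 CPM with PMA_ethanol. The controls lay close together, the treated libraries were far below them with library 2 highest, and the log2 fold change was -3.78 (SE 0.428, adjusted p = 2.91e-06 by edgeR), and -4.695 without that library. Ahr, the sensor of aromatic ligands, did not pass the test, at 0.11 (SE 0.105, adjusted p = 0.38 by edgeR), and was at -0.13 with upper-quartile scaling.

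Homeobox, SOX and forkhead factors, which pattern tissues, fell more often than they rose. Of 66 measured homeobox factors 38 fell and 14 rose, at a median of -0.83. Pou3f1 and Irx4 fell by 2.41 (SE 0.104, adjusted p = 4.34e-12 by edgeR) and 2.01 (3.02 for Irx4 without PMA_ethanol library 2), and Hoxd9 by 1.96, whereas Hlx, a factor of blood and mesenchyme, rose by 2.21. Tgif1, a repressor in TGF-beta signalling, rose from 29.9 ± 3.01 CPM (SD, n = 5) to 119.6 ± 18.2 CPM (SD, n = 4). Of 36 SOX and forkhead factors 21 fell and 10 rose. Foxq1 and Foxn3 fell by 2.04 and 1.91 and Foxo1 by 0.41, and Sox9, which marks cartilage and the hair follicle, did not pass, at 0.11 (SE 0.112, adjusted p = 0.407 by edgeR), and was at -0.13 with upper-quartile scaling. In the mixed list of GATA, RUNX, T-box, TFAP2, TEAD, GRHL and MEF2 factors 21 of 56 rose (37.5%) and 22 fell (39.3%). These shares lay near the 32.5% and 35.9% of all genes. The numbers were 21 and 21 by DESeq2 size factors and 18 and 30 under upper-quartile scaling. Tfap2b had 137, 138, 106, 141 and 114 CPM in controls and 13.3, 20.2, 12.9 and 15.6 CPM with PMA_ethanol, without overlap, a log2 fold change of -2.99 (SE 0.157, adjusted p = 5.02e-11 by edgeR). Tfap2e fell by 3.28, and Grhl3, a factor of the epidermal barrier, rose by 1.70.

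The C2H2 zinc finger factors, the largest family with 346 measured members, fell in 172 cases and rose in 60, at a median of -0.45, and 78 against 18 passed a fold of 2. Zfp395 had 81, 93, 60.8, 76.1 and 61.3 CPM in controls and 7.89, 11, 5.39 and 8.73 CPM with PMA_ethanol, a log2 fold change of -3.09 (SE 0.298, adjusted p = 2.51e-07 by edgeR). The treated libraries were close together and far below the controls. Zfp467, Zfp503 and Zfp521 fell by 2.61, 2.23 and 2.06, and Zfp593, which is linked to ribosome assembly, rose by 2.35 (SE 0.111, adjusted p = 1.2e-11 by edgeR). Of 43 BTB zinc finger factors 11 rose and 19 fell, with Zbtb16 lower by 2.03. Srf, the serum response factor, counted in the mixed list, was higher by 1.56, and Ebf2, Nfia and Nfix were lower by 3.40, 1.83 and 1.69.

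Of 96 chromatin-modifying enzymes 31 rose (32.3%) and 32 fell (33.3%), near the 32.5% and 35.9% of all genes. The numbers were 33 and 32 with DESeq2 size factors and 22 and 56 with upper-quartile scaling. Kdm6b, a demethylase of histone H3 induced in activated macrophages, rose by 2.37 (SE 0.106, adjusted p = 6.62e-12 by edgeR), Kdm7a, another histone demethylase, by 1.86 and Prdm1, a repressor of the methyltransferase-like PR family, by 1.72. Hdac11, a deacylase, fell by 2.12 and Tet1, which oxidises methylated DNA, by 1.88.

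**Figure D4:**
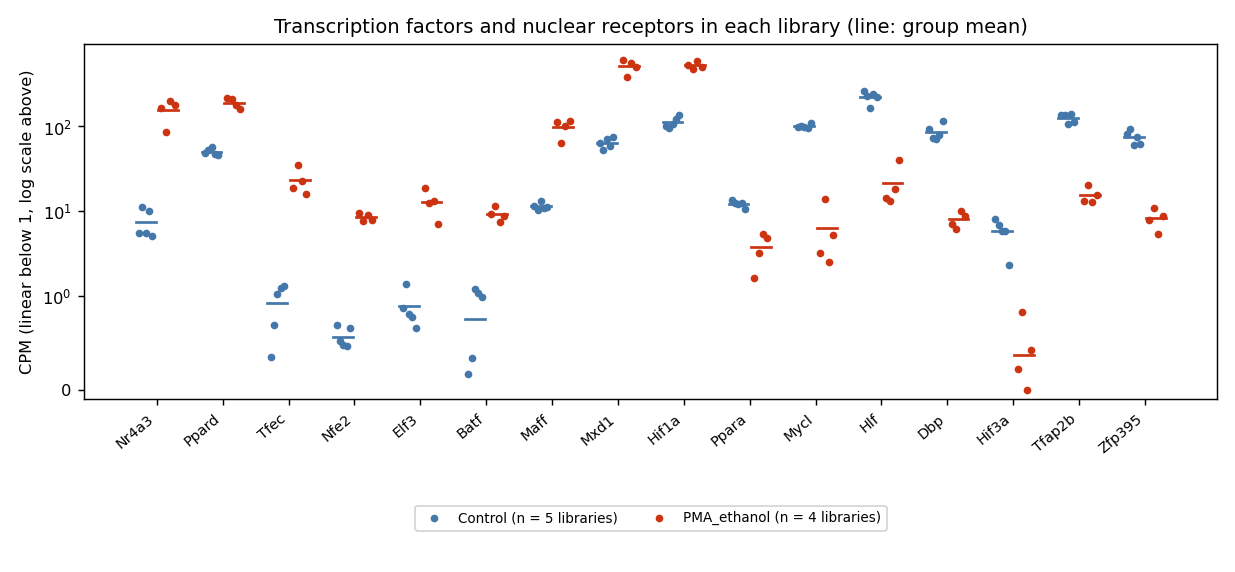
CPM (linear below 1 and log scale above) of 16 transcription factor and nuclear receptor genes in each of the 5 control (blue) and 4 PMA_ethanol (red) libraries, with lines at the group means. The 9 genes from Nr4a3 to Hif1a are higher in every treated library and the 7 from Ppara to Zfp395 are lower in every treated library than in the controls.

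Long noncoding RNA genes fell more often than they rose. Of 7362 annotated genes 570 passed the filter, 522 of them with a control mean of at least 1 CPM, and 127 rose and 266 fell, at a median of -0.52 against -0.07 for all genes. The share of reads that they held was 1.08% ± 0.0596 in controls (SD, n = 5) and 1.03% ± 0.0721 with PMA_ethanol (SD, n = 4), and the difference did not pass (exact permutation test over 126 assignments, two-sided, p = 0.246, adjusted p = 0.328 over 4 shares). Without the 10 most abundant genes of each library, which can differ between libraries, the share was lower by 0.172 percentage points with PMA_ethanol. That difference passed (exact permutation adjusted p = 0.0476). With 1 library left out and all genes kept the difference did not pass (exact permutation adjusted p 0.152 to 0.643). Intergenic genes fell in 86 and rose in 46 of 191 cases, and antisense genes fell in 87 and rose in 36 of 183 cases. The strand setting of the counting is not stated in the labels used here, so reads of an antisense gene and of its partner may be mixed.

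Some microRNAs are cut out of longer transcripts, and the polyA libraries measured these host transcripts and not the mature microRNAs. Of the tested noncoding and named genes 34 held at least 1 mature microRNA of RefSeq on GRCm38.p6 on the same strand, and 15 of these hosts rose, 13 fell and 6 did not pass. Most named genes were taken because they were called. These counts are therefore no rate to set against the 32.5% and 35.9% of all genes that rose and fell. Here 11 called hosts are described, and the mature sequences of some of their microRNAs are shown so that those with a shared seed can be seen. Among the called hosts not described further, Clcn5, with miR-500 and miR-501, rose by 1.77, Gm28119, with the same copy of miR-125b as 3110039I08Rik, which it overlaps, rose by 2.84, and E130102H24Rik, with miR-101a, fell by 1.72. Each sequence is written with its seed, bases 2 to 8, which pairs with target RNAs, in capitals. The first lines belong to hosts that rose.
miR-155-5p: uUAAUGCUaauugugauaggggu
miR-223-3p: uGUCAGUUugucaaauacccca
miR-142a-3p: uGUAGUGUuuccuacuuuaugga
miR-21a-5p: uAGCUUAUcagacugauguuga
miR-22-3p: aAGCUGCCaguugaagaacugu
miR-17-5p: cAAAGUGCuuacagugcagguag
miR-20a-5p: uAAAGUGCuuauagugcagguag
miR-19a-3p: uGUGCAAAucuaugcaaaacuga
miR-19b-3p: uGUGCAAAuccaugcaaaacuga
miR-100-5p: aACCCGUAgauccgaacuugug
miR-125b-5p: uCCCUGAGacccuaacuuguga
The next lines belong to hosts that fell.
miR-205-5p: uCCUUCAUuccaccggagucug
miR-200b-3p: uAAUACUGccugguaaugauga
miR-429-3p: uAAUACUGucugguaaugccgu
miR-200a-3p: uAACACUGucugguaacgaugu
miR-99a-5p: aACCCGUAgauccgaucuugug
let-7c-5p: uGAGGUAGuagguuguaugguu
miR-199a-3p: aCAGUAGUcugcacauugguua
miR-214-3p: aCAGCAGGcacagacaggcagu
By seed, miR-17-5p pairs with miR-20a-5p, miR-19a-3p with miR-19b-3p and miR-200b-3p with miR-429-3p, each pair within 1 host. The seed of miR-100-5p equals that of miR-99a-5p, although the host of the former rose and that of the latter fell.

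Mir155hg, the host of miR-155, which is known from activated leukocytes, lies at chromosome 16, 84703167 to 84715245, on GRCm38 and had 0.347, 0, 0, 0.154 and 0 CPM in controls and 9.54, 6.26, 8.71 and 5.44 CPM with PMA_ethanol. The controls held 3 reads in all and every treated library was above them. The ratio of the Mir155hg read shares was 73.5 (exact 95% binomial interval 24.9 to 359, counting error only), and the edgeR adjusted p of Mir155hg was 7.58e-08. Its fitted log2 fold change of 6.26 became 7.34 without control library 1. F630028O10Rik, whose span holds miR-223 of myeloid cells, had 3.82, 1.72, 4.09, 4.62 and 5.25 CPM in controls and 22.9, 11, 34.8 and 17.9 CPM with PMA_ethanol, a log2 fold change of 2.41 (SE 0.34, adjusted p = 1.05e-05 by edgeR). Mir142hg, the host of miR-142 of blood cells, rose by 2.19 (SE 0.238, adjusted p = 3.58e-07 by edgeR). These rises stand beside the rise of all 7 measured neutrophil markers.

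Other hosts that rose are not restricted to leukocytes. Vmp1, the autophagy gene named above, ends over the miR-21a hairpin and had 78.2, 85.3, 88, 90.5 and 78.2 CPM in controls and 461, 297, 476 and 397 CPM with PMA_ethanol, with every treated library above the controls. Mir17hg, the host of the miR-17 to miR-92a cluster known from growing cells, rose by 2.09 (SE 0.21, adjusted p = 1.91e-07 by edgeR). Mir22hg, the host of miR-22, went from 54.1 ± 4.07 CPM (SD, n = 5) to 141 ± 18.7 CPM (SD, n = 4), and 3110039I08Rik, whose span holds miR-100 and a copy of miR-125b, from 73.1 ± 9.92 CPM (SD, n = 5) to 222 ± 48.9 CPM (SD, n = 4). Their log2 fold changes were 1.38 (SE 0.0907, adjusted p = 7.17e-10 by edgeR) and 1.60 (SE 0.151, adjusted p = 8.69e-08 by edgeR).

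The host transcript of miR-205, a microRNA of stratified epithelia, fell. This transcript, 4631405K08Rik at chromosome 1, 193507238 to 193510174, had 10.9, 12.6, 11.3, 12.5 and 12.6 CPM in controls and 2.41, 4.64, 4.98 and 3.43 CPM with PMA_ethanol. The groups did not overlap, and the log2 fold change was -1.66 (SE 0.185, adjusted p = 4.89e-07 by edgeR), beside the fall of 8 of 10 keratinocyte markers. Gm13648, whose span holds the miR-200b, miR-200a and miR-429 hairpins of epithelia, had 3.3, 4.31, 3.93, 4.47 and 5.25 CPM in controls and 1.64, 2.32, 2.49 and 1.57 CPM with PMA_ethanol, a log2 fold change of -1.10 (SE 0.218, adjusted p = 0.000261 by edgeR). Dnm3os, the host of miR-199a and miR-214 in mesenchymal cells, fell by 1.32 (SE 0.192, adjusted p = 1.08e-05 by edgeR). Mir99ahg, which holds miR-99a, let-7c and the second copy of miR-125b, had 12.7, 7.58, 7.38, 14.6 and 15.1 CPM in controls and 3.29, 4.16, 4.98 and 4.72 CPM with PMA_ethanol, a log2 fold change of -1.44 (SE 0.304, adjusted p = 0.000459 by edgeR). The mature miR-125b-5p is the same from both copies, and their hosts 3110039I08Rik and Mir99ahg moved in opposite directions. F630028O10Rik and Dnm3os are annotated as antisense to other genes, so their reads may be mixed with those of the partner. The hosts Mir22hg, F630028O10Rik, 3110039I08Rik, 4631405K08Rik, Gm13648, Gm28119 and E130102H24Rik were chosen after their values were seen.

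Well-studied long noncoding RNAs rose in 10 and fell in 10 of 24 measured cases (41.7% each), beside 32.5% and 35.9% of all genes. Malat1, an abundant nuclear RNA, had 1538, 1218, 1224, 1568 and 1559 CPM in controls and 1651, 1298, 1983 and 1833 CPM with PMA_ethanol. The groups overlapped and the test was not passed, at 0.25 (SE 0.129, adjusted p = 0.0946 by edgeR), but it passed as higher in 4 alternatives, among them the fit without PMA_ethanol library 2 (0.36, edgeR adjusted p = 0.0148). Neat1, the scaffold of nuclear paraspeckles, had 1613, 1339, 1419, 1765 and 1957 CPM in controls and 2507, 2020.2, 3213 and 2322 CPM with PMA_ethanol, apart but close, a log2 fold change of 0.64 (SE 0.139, adjusted p = 0.000612 by edgeR). Mirt1 had 1.56, 0.344, 1.44, 0.771 and 0.492 CPM in controls and 72.8, 37.1, 73.4 and 68.1 CPM with PMA_ethanol, and rose by 5.96 (SE 0.345, adjusted p = 4.97e-10 by edgeR), with library 2 lowest among the treated. Mirt2, with 3 reads in all controls together, had a ratio of 48.8 (exact 95% binomial interval 16.5 to 239, counting error only). Miat fell, with 36.2, 42.4, 45.6, 32.7 and 37.1 CPM in controls and 5.7, 10.6, 4.98 and 8.73 CPM with PMA_ethanol, a log2 fold change of -2.29 (SE 0.237, adjusted p = 2.88e-07 by edgeR).

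Of 15 measured transcripts that host small nucleolar RNAs, which guide the modification of ribosomal RNA, 10 rose and 4 fell, at a median of 0.94. Snhg1 had 30.7, 26.4, 31.7, 34.2 and 37.6 CPM in controls and 87.1, 77.8, 91.3 and 88.7 CPM with PMA_ethanol, a log2 fold change of 1.42 (SE 0.12, adjusted p = 1.7e-08 by edgeR). Snhg12, Zfas1 and Snhg15 rose by 1.44, 1.37 and 1.36, and Snhg20 fell by 0.69. Snhg1 starts 106 bases from Slc3a2 on the opposite strand, the amino acid carrier chain that rose as well. Of 10 imprinted noncoding transcripts, which are read from the copy of 1 parent, 5 fell and 0 rose by the edgeR test, while 1 rose at an unadjusted p under 0.05, 0 by DESeq2 and 1 by limma voom. Meg3 fell by 0.45 (edgeR adjusted p = 0.00385), H19, which holds miR-675, by 0.59 and Peg13 by 0.80. With the libraries of high hair follicle level left out, Meg3 did not pass, at -0.22 (edgeR adjusted p = 0.17).

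Transcripts without an assigned name also changed by large folds. Gm43834, annotated as a transcript to be experimentally checked (TEC), lies at chromosome 3, 18299310 to 18304139, on GRCm38, 55972 bases from Cyp7b1, the nearest protein-coding gene. It had 0, 0.172, 0.0802, 0 and 0.328 CPM in controls and 196, 84.7, 199.5 and 81.8 CPM with PMA_ethanol, the largest rise among the noncoding genes named by rule, at 10.15 (SE 0.653, adjusted p = 8.23e-09 by edgeR). The 5 control libraries held 4 reads together, so the size of the fold carries a large counting error, and it was 10.80 without control library 5. Gm44165, with 2 control reads, had a ratio of 84.3 (exact 95% binomial interval 23.1 to 701, counting error only), and it lies within Tarm1 on the same strand, so its reads may be those of Tarm1, which rose by 5.44 itself. Gm20400 and Gm45774, antisense to Slco1a6 and to Mt2, rose by 6.19 and 3.76 (3.13 for Gm45774 without PMA_ethanol library 2), and Mt2, a metallothionein that binds zinc, rose by 3.80. Tarm1 and Mt2 were added as neighbours of these genes. Gm15675 fell by 2.82 (SE 0.198, adjusted p = 1.6e-09 by edgeR) and Gm20627 by 3.58. Without PMA_ethanol library 4 the log2 fold change of Gm20627 was -4.70.

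Pseudogenes took a larger share of the reads in genes with PMA_ethanol. The share was 0.257%, 0.266%, 0.249%, 0.258% and 0.265% in control libraries 1 to 5 and 0.35%, 0.337%, 0.398% and 0.31% in PMA_ethanol libraries 1 to 4. Each treated library stood above each control, and the means differed (exact permutation test, two-sided, p = 0.00794, the smallest that 126 assignments can give, adjusted p = 0.0317 over 4 shares). Of 215 measured pseudogenes 53 rose and 27 fell, but with upper-quartile scaling 39 rose and 44 fell, and reads of a parent gene may be counted in its pseudogene. Reads that align to several positions, which are not counted in genes, were 15.98 to 17.86% of the table in controls and 18.63 to 20.12% with PMA_ethanol, also without overlap, and their part in the pseudogene share was not tested. The share of mitochondrially encoded genes was 1.76% ± 0.404 in controls (SD, n = 5) and 1.42% ± 0.234 with PMA_ethanol (SD, n = 4), and that of nuclear protein-coding genes 96.8% ± 0.458 and 97% ± 0.323 (exact permutation adjusted p = 0.328 and 0.389), so neither difference passed.

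**Figure D5:**
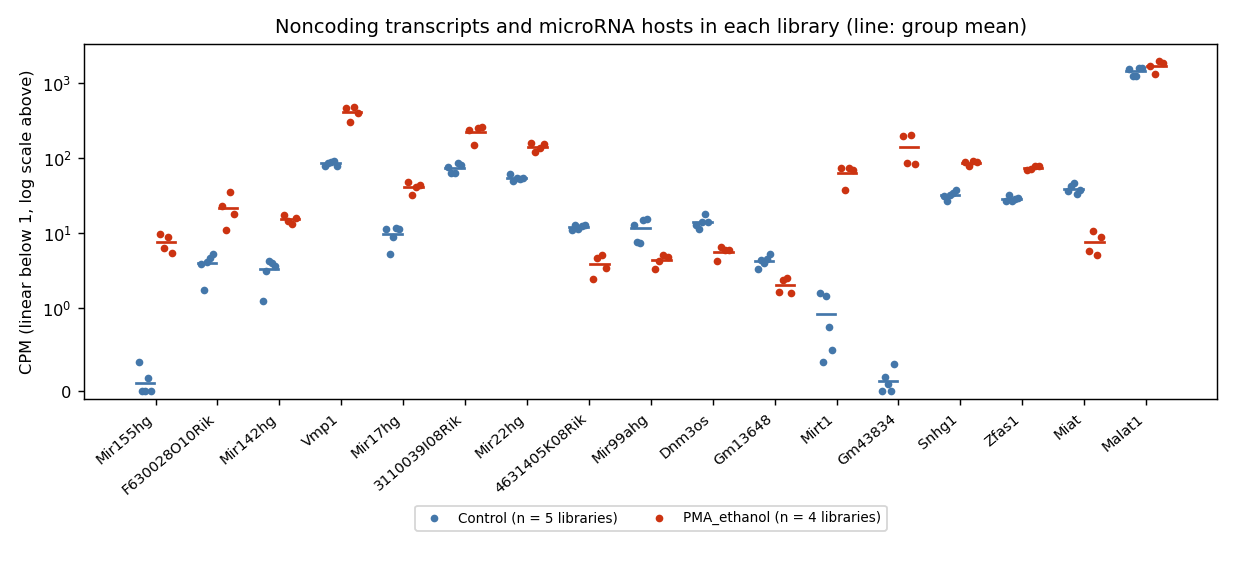
CPM (linear below 1 and log scale above) of 17 noncoding transcripts and microRNA hosts in each of the 5 control (blue) and 4 PMA_ethanol (red) libraries, with lines at the group means. From Mir155hg to Mir22hg the treated libraries are higher, from 4631405K08Rik to Gm13648 they are lower, and for Malat1 the groups overlap.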

How the data were processed

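PolyA RNA of ear tissue was sequenced from stranded libraries, per the labels' protocols. The submitters' processing notes name FastQC 0.11.5, MultiQC 0.8, STAR 2.5, HTSeq and the build GRCm38. The deposited files hold the authors' whole-number counts of reads per Ensembl gene; the annotation release and strand setting are not named in these sources. The summary lines were removed, and reads not assigned to a gene were 28.5 to 30.05% of each control table and 31.11 to 32.85% of each PMA_ethanol table, without overlap. Symbols, biotypes and positions came from GENCODE M21, which held 48435 of 48795 gene IDs.

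Genes were filtered by filterByExpr per group, scaled by TMM and tested with edgeR 4.0.16 (R 4.3.3) by the robust quasi-likelihood test. All 15 libraries, those titled PMA_1002 included, were in 1 model, so that the spread was estimated over all groups. With only the 9 libraries compared, 4758 genes rose and 5129 fell. P-values were adjusted by Benjamini-Hochberg. SE is the absolute log2 fold change over the square root of F. On simulated counts for 14567 genes the test called 39.7, 86.2 and 93.8% of genes changed by a fold of 1.5, 2 and 4, and 7 of 14370 unchanged genes. The changed genes numbered 68, 65 and 64, in both directions, a far smaller part than the 68.4% called in the data. These rates need not hold at that share, and a shift that comes from the scaling could not show in them. Read shares were compared by exact permutation. Confidence intervals were exact binomial. No pair of replicates of a group agreed within sampling noise (chi-square per degree of freedom 2.93 to 27.0).

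The genes named are a fixed panel and, per list, up to 4 higher and 4 lower called genes of largest fold with no overlap between groups and at least 5 CPM in the higher group. Some genes that meet the rule are not reported here. Members and lists were chosen with earlier results of these data known. Alternatives were other scalings and filters, DESeq2 1.42.0, limma 3.58.1 (voom), the 9 libraries alone, a replicate block, hair and muscle levels as covariates, each library left out in turn, and, chosen after seeing the data, the libraries of low hair follicle level alone.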

Additional observations from a re-analysis of the deposited data

Results flagged for a closer look

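In 32 of 514 groups of libraries over the genes described, the highest or lowest library stood apart from the rest of its group by Dixon's 95% criterion, which chance alone meets in about 1 in 20 groups. Values are CPM, with the range of the other libraries of the group after each.

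Control library 1 stood above the rest of its group in Gldc (12 against 6.72 to 8.01) and Npy1r (15.6 against 5.58 to 7.46). Control library 2 stood above the rest of its group in Foxo1 (90.6 against 76.1 to 80.3) and Mcoln1 (90.9 against 66.8 to 71.4). Control library 3 stood above the rest of its group in Epha1 (156 against 129.9 to 137), Gprc5a (3.29 against 0.82 to 1.21), Irx4 (19.4 against 10.2 to 11.6), Rars (85.9 against 62.7 to 69), Stra6 (9.47 against 5.38 to 6.37) and Upp1 (5.13 against 1.21 to 2.3). Control library 4 stood above the rest of its group in Mrps25 (18.6 against 13 to 14.3). Control library 5 stood above the rest of its group in Eef1e1 (12 against 8.17 to 8.84), Mycl (109 against 96.6 to 100.1) and Zfp467 (27.9 against 22.2 to 23.6). Control library 2 stood below the rest of its group in Pgm2 (12.1 against 17 to 18.9), Prdm1 (35.1 against 49.5 to 54.6) and Slc25a25 (15.3 against 21.3 to 22.3). Of these genes Epha1, Irx4, Gprc5a, Stra6, Upp1 and Rars were high in control library 3, which also had the highest hair follicle level among controls.

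Control library 3 stood below the rest of its group in Cpt1c (9.39 against 13.3 to 14) and Tef (302 against 344 to 360.2). PMA_ethanol library 2 stood above the rest of its group in Irx4 (6.4 against 0.83 to 1.75). PMA_ethanol library 3 stood above the rest of its group in Psme3 (260 against 222 in the other 3, on rounding). PMA_ethanol library 4 stood above the rest of its group in Gm20627 (1.43 against 0 to 0.219) and Zbtb16 (25.7 against 13.4 to 15.5). PMA_ethanol library 1 stood below the rest of its group in Acox3 (50.8 against 68.9 to 72.2). PMA_ethanol library 2 stood below the rest of its group in Bst1 (17.1 against 23.2 to 24.4), Mirt1 (37.1 against 68.1 to 73.4), Slc7a1 (208 against 225 to 226) and Srf (114 against 158 to 165). PMA_ethanol library 3 stood below the rest of its group in Calcoco1 (42.7 against 61.8 to 62.2), Nadk2 (3.73 against 5.59 to 5.86), Rxra (92.9 against 109 to 111) and Slc7a4 (0 against 0.876 to 1). PMA_ethanol library 3 is the shallowest library, and a value of 0 there allows up to 3 reads.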

How the results depend on the processing

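Over 253 genes and 21 alternatives, which gave 5312 values, 5296 kept their direction and their side of the threshold, 4 lost the call and 8 gained it; the 6 genes concerned are Cs, Malat1, Meg3, Nampt, Pex5 and Tfrc. The other 4 values turned sign without passing the test in either fit: Ahr (0.11) was at -0.13 with upper-quartile scaling and -0.12 with no scaling beyond the total, and Sox9 (0.11) likewise at -0.13 and -0.12. The size of the fold moved by over 1.5 times in 27 genes, 13 of them with 1 library left out, whose values stand beside the results, and 22 with libraries of high hair level omitted. In that fit Trpv6 was at -3.11, Irx4 at -2.92, Hif3a at -4.36, Mycl at -4.43, Amt at -2.81, Tfap2e at -3.94 and Mrgprb2 at -4.74, Ebf2 at -2.78, Gpr34 at -2.35, Slc16a14 at -3.74, Kcnj16 at -3.57 and Gm20627 at -2.70 (edgeR adjusted p = 0.0323), and Gjb2 at 4.51, Upp1 at 4.63, Slc7a11 at 4.75, Slc11a1 at 4.69, Kcnn4 at 2.81, Slc39a8 at 2.06, Ppp1r3b at 2.07, Mirt2 at 6.96, Gm43834 at 10.97 and Mir155hg at 5.25. With limma voom Mirt2 was at 4.97 and Gm44165 at 5.57. Scaling moved the split between directions most: 33.6% of called genes were higher with upper-quartile scaling and 34% with no scaling beyond the total, against 47.5% with TMM, so small changes of a list need that shift beside them. With a fold of at least 2, upper-quartile scaling gave 1587 higher and 3072 lower genes. Leaving out each library in turn gave 4684 to 4823 higher and 5049 to 5281 lower genes. The replicate numbers did not pair the samples (correlations of deviations between -0.469 and 0.147), and the fit with a replicate block called 9862 genes, 4704 higher and 5158 lower, and 4214 with a fold of at least 2. The difference in the lncRNA read share was -0.172 percentage points without the 10 most abundant genes of each library (exact permutation adjusted p = 0.0476). Its cause, and the part of which genes were removed from which library, was not tested. The difference in the pseudogene share ranged from 0.073 to 0.103 percentage points with 1 library left out (exact permutation adjusted p 0.0714 to 0.114), where fewer libraries raise the smallest p that can be reached. Depth limits genes of few reads most in PMA_ethanol library 3. The planned fold of at least 4 for the promoter and gene length descriptions was not run.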

Other observations

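Long noncoding RNA genes, without TEC transcripts, were set beside their nearest protein-coding gene, for pairs in which both were called. The same direction was found in 14 of 17 pairs that overlap on the same strand, 80 of 115 that overlap on opposite strands, 30 of 43 that lie apart on the same strand and 43 of 76 that lie apart on opposite strands. In that order 50, 275, 103 and 142 lncRNA genes were tested. Unrelated genes also often share a direction, since 32.5% of all genes rose and 35.9% fell, and the share expected for unrelated pairs was not computed. Reads shared between overlapping genes can give the same direction in both, and their part in these counts was not tested.

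Short genes were more often among the large rises. With tested genes in 4 equal classes of exonic length, 17.1% of the shortest class (up to 2606 bases) and 10.7% of the longest (6615 bases and more) rose by a fold of at least 2, and 13.1% and 12.1% fell by as much. Genes are not independent replicates, so no test is given.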
